A study of Mus musculus with 2 samples.

Results

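The genes described here are the FOXO transcription factors Foxo1, Foxo3 and Foxo4 and 7 genes that are known to rise when signalling through phosphoinositide 3-kinase (PI3K) and its kinase AKT, or growth signalling in general, falls: Pik3ip1, Ccng2, Klf2, Txnip, Trp53inp1, Sesn1 and Sesn3. These 10 genes, out of 18193 that the array reads by a probe set with 1 gene symbol, were chosen by pathway with earlier results of the same contrast known, that of Pik3ip1 among them, and every probe set annotated with 1 of their symbols was taken. Their differences are therefore a description, and nothing measured on these arrays is independent of that choice. The study asked which genes depend on lnc-C/EBPβ (lncMDSC in the labels), a long non-coding RNA, while bone marrow cells become myeloid-derived suppressor cells (MDSCs), immature myeloid cells of neutrophil and monocyte type that hold back T cell responses. Bone marrow cells of C57BL/6 mice received either silncMDSC, an siRNA against that RNA, or a control siRNA, and both cultures then grew in GM-CSF and IL-6 for 4 days. The age and sex of the mice and the number of mice behind each culture are not given in the sources used here. Each group had 1 array of total RNA from a whole culture, with no sort described, so there was no replicate, no test was possible, and each difference is that between 2 single cultures. The level of the targeted RNA, and so its knockdown, was not analysed here.

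FOXO factors are forkhead proteins that switch on genes of growth arrest, antioxidant defence, autophagy and cell death. When growth factors such as GM-CSF activate PI3K, AKT phosphorylates FOXO proteins, which are then held in the cytoplasm by 14-3-3 proteins, so their main control lies in the protein and not in its mRNA. When PI3K signalling falls, FOXO proteins return to the nucleus and their target genes rise, which is why the mRNA of such targets is often read as a mirror of PI3K activity. In myeloid cells the FOXO factors are known for restraining the growth of progenitors.

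The values were probe set intensities on a linear scale, and differences were taken on the log2(intensity + 1) scale, silncMDSC minus control. A gene was read from its brightest probe set, and the median of all values, an intensity of 78.4, served as a floor. A probe set was counted as above it if the higher of its values on the silncMDSC and control arrays reached it, so the other value could lie below. All 10 genes were above this floor, as were 19 of their 24 probe sets. Across the 11920 genes above the floor the median difference was -0.002, with a robust SD (scaled median absolute deviation) of 0.18. Markers of the labelled cells were present, with 10 of 12 neutrophil and 11 of 12 monocyte genes read and each of these above the floor. Those not read were Ly6g, Retnlg and Ly6c2, so the Ly6G and Ly6C markers that define the MDSC types were not checked. Cx3cr1 reached the floor on the silncMDSC array only, with 87.3 there and 67.26 on the control array. S100a8 stood at 13399 on the silncMDSC array and 13474 on the control array, and Csf1r stood at 4347 on the silncMDSC array and 4088 on the control array.

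The sequences at the start of Pik3ip1, Ccng2 and Txnip are shown because Pik3ip1 and Ccng2 stood farthest above control and Txnip carries a FOXO element upstream of its start site. RefSeq (build GRCm38.p6) gave windows for 8 of the 10 members. Each sequence below is the 250 bases before the start site on the plus strand, 5′ to 3′, at chr11:3330481-3330730 for Pik3ip1, chr5:93267323-93267572 for Ccng2 and chr3:96557707-96557956 for Txnip, with matches to the searched motifs in capitals. The start used for Pik3ip1 lies inside the annotated span of its gene.
Pik3ip1: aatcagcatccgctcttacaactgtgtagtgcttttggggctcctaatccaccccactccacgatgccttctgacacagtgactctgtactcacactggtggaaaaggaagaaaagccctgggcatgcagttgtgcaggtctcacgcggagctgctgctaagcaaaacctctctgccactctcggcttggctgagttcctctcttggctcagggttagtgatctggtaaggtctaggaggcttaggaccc
Ccng2: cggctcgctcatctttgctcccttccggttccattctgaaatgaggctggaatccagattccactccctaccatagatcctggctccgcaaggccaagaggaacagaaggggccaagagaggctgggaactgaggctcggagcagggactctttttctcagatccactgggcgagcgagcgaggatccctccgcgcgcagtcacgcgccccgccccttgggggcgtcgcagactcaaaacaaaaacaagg
Txnip: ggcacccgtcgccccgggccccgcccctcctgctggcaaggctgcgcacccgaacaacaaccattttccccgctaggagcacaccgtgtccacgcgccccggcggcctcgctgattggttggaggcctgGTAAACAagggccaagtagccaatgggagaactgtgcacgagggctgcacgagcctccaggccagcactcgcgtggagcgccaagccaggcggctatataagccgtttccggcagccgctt

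The windows searched reached from 250 bases before to 50 bases after the start site, on both strands. The FOXO element GTAAACA was found in the windows of 2 of the 8 members, Txnip and Sesn1, against 4.05% of 27025 genes with a window. In Txnip it lay 121 to 115 bases upstream of the start site. In Sesn1 it lay 22 to 28 bases downstream of 1 of the gene's 2 annotated starts, on the opposite strand, at chr10:41810585-41810613, where its capitals mark the match.
Sesn1: gaaccttctacTGTTTACcagccttttgg
The other forkhead core ATAAACA, the E-box CACGTG and the C/EBP palindrome TTGCNNCAA were found in 0 of the 8, against 5.28%, 8.09% and 2.38% of all genes. Only these motifs were searched, so imperfect forms of them were not found. A match is a run of letters and no measured site, and the windows are short. Neither the matches nor their absence thus say whether FOXO proteins or other factors bind these genes.

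Read from its brightest probe set, each of the 10 members was higher on the silncMDSC array, although Foxo1 and Foxo3 changed sign with other probe set choices, as given below. The differences ran from 0.11 for Sesn1 to 1.22 for Pik3ip1, with a median of 0.22. By comparison, 49.3% of all genes above the floor were higher by any amount. Of the 10, 2 were higher by 1.5-fold or more, as were 0.948% of all genes, and 0 were lower by that much, as were 1.42% of all genes. Since the members were picked with this contrast known, nothing is read from these shares. The 8 other members lay within 1.5-fold, with a median of 0.19. In RNA from a whole culture, more cells of a type and more RNA per cell cannot be told apart.

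**Figure D1:**
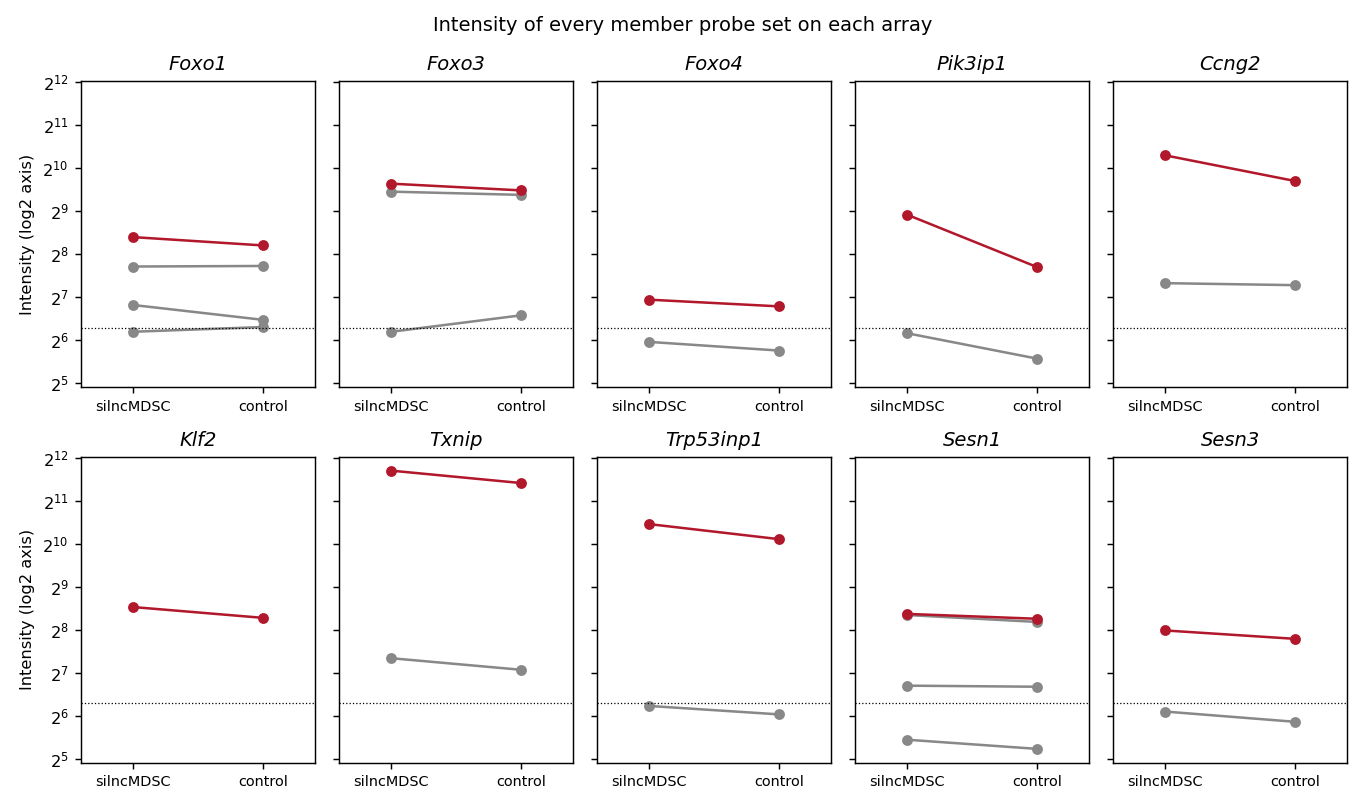
Intensity (log2 axis) of every probe set of the 10 members on the silncMDSC array and on the control siRNA array, with a line joining the values of 1 probe set. Red marks the brightest probe set of each gene, grey the others, and the dotted line the floor of 78.4. The steepest line is that of Pik3ip1, with 484.5 on the silncMDSC array and 208 on the control array.

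Pik3ip1, a membrane protein that binds the catalytic subunit of PI3K and restrains it, was the member farthest above control. Its probe set 1428332_at had an intensity of 484.5 on the silncMDSC array and 208 on the control array. This was 2.32-fold higher, rank 9 from the top of 11920 genes, and Pik3ip1 was the 1 member among the 0.168% of genes that were at least 2-fold higher. Its second probe set, 1439087_a_at, pointed the same way, with 71.6 on the silncMDSC array and 47.52 on the control array (0.58), but both values were below the floor.

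Among the FOXO factors themselves, mRNA differed little and the probe sets of Foxo1 and Foxo3 did not share 1 direction. Foxo1 had 337.8 on the silncMDSC array and 295.3 on the control array on its brightest probe set (0.19). Its other 3 probe sets gave -0.012, 0.34 and -0.11, the last of them with 73.39 on the silncMDSC array, under the floor, and 79.18 on the control array. Its brightest probe set has an identifier ending in _s_at, which marks possible cross-hybridisation, and without such probe sets Foxo1 stood at -0.012. Its direction therefore rests on the probe set used.

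Foxo3 had 800.1 on the silncMDSC array and 717.7 on the control array (0.16). Its second probe set had 703.5 on the silncMDSC array and 667.8 on the control array (0.075). The third probe set, which was dim, gave -0.38, with 73.36 on the silncMDSC array, under the floor, and 95.7 on the control array, and the mean of the 3 was -0.049. Another probe set, which the annotation shares between Foxo3 and Gm38485 and which was not counted, had 130 on the silncMDSC array and 140.4 on the control array. Of the 4, the 2 brightest were thus slightly above control and the other 2 below it.

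Foxo4 had 123.1 on the silncMDSC array and 110.5 on the control array (0.15), and its second probe set lay below the floor on both arrays with a difference of 0.20. Over the 8 FOXO probe sets above the floor, 5 were higher and 3 lower, with a median of 0.11. Among the lower ones, the dimmest of Foxo1 and of Foxo3 reached the floor on the control array only. Both were lower with or without the floor, but a probe set counted through the control array alone is lower by construction. The remaining lower one, of Foxo1, stood at -0.012. All 11 probe sets above the floor of the other 7 members were higher, with a median of 0.25. Of all named probe sets above the floor, 48.2% were higher by any amount. With 1 array per group the difference between these groups of members was not tested.

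Ccng2, an unconventional cyclin that slows the cell cycle and a known FOXO target, was the second member at least 1.5-fold higher. Its probe set 1416488_at had 1263 on the silncMDSC array and 834 on the control array, 1.51-fold higher, which is only just past that threshold. Its other probe set, 1448364_at, which stems from the same transcript record, had 160.7 on the silncMDSC array and 155.6 on the control array (0.046). The gap of 0.55 between them was wide, since the 2 brightest probe sets of a gene differed by a median of 0.094 over the 4845 genes with 2 above the floor, and 1.47% of these genes had a gap as wide. The size of the Ccng2 difference thus depends on the probe set, and the mean over both was 0.32.

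Klf2, a transcription factor that FOXO1 induces and that keeps lymphocytes quiescent and monocytes less inflammatory, had a single probe set. Its intensity was 370.7 on the silncMDSC array and 311.3 on the control array (0.25), 1.19-fold higher.

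Txnip, an arrestin-like protein that binds thioredoxin and lowers glucose uptake, had the closest pair of bright probe sets among the members. Its values were 3348 on the silncMDSC array and 2740 on the control array (0.29), and its second probe set had 162.4 on the silncMDSC array and 134.7 on the control array (0.27). This is the member whose promoter window carries the FOXO element upstream of the start.

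Trp53inp1, a p53-induced protein that promotes autophagy and cell death, had 1413 on the silncMDSC array and 1108 on the control array (0.35), behind only Pik3ip1 and Ccng2 in difference. Its second probe set was below the floor on both arrays and gave 0.19.

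The sestrins, stress-induced proteins that restrain mTORC1, the growth kinase complex downstream of AKT, were slightly higher. Sesn1 had 331.9 on the silncMDSC array and 306.8 on the control array (0.11), and its 3 other probe sets ranged from 0.025 to 0.21, the highest of these below the floor. Its 2 brightest probe sets end in _s_at, and without such probe sets Sesn1 stood at 0.025. Sesn3 had 254.1 on the silncMDSC array and 221.9 on the control array (0.19), and 0.23 on a probe set below the floor. The remaining sestrin, Sesn2, which is not a member, had 292.9 on the silncMDSC array and 249.8 on the control array (0.23). All of these were within 1.2-fold.

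**Figure D2:**
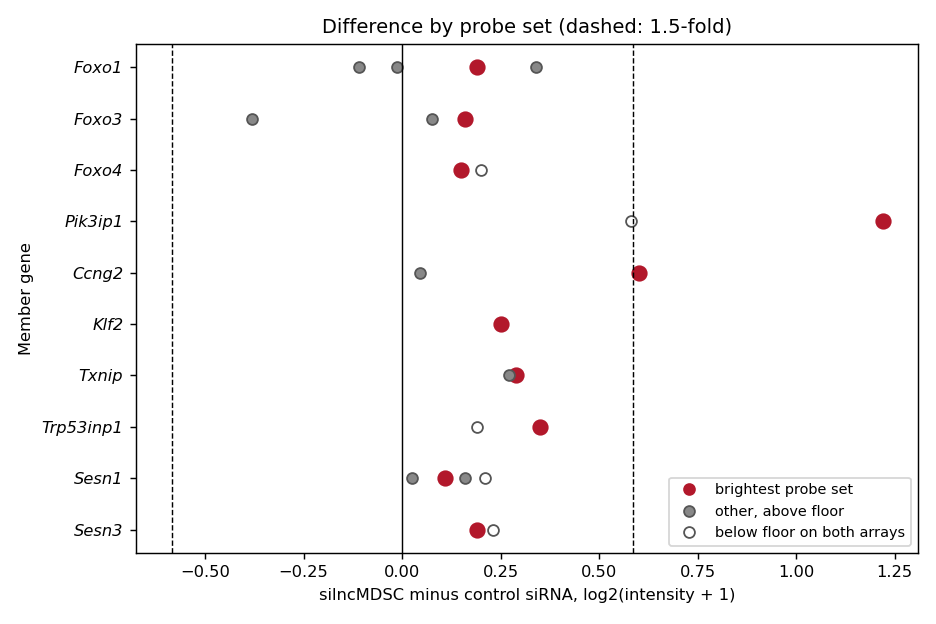
Difference between the silncMDSC and control siRNA arrays (x axis, log2(intensity + 1)) for each probe set of the 10 members (rows). Red marks the brightest probe set, grey other probe sets above the floor, and open circles probe sets below it on both arrays, and the dashed lines mark 1.5-fold. Pik3ip1 at 1.22 and Ccng2 at 0.60 lie past the dashed line, while Foxo1 and Foxo3 have probe sets on both sides of 0.

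At the level of probe sets, the 1.5-fold threshold was passed upwards by 2 of the members' 19 readings above the floor, against 0.806% of all 19739 named probe sets, and downwards by 0, against 1.46%. The 5 member probe sets below the floor on both arrays gave 0.19 to 0.58. These were not counted, and no share over all such probe sets was taken. The 3 probe sets above the floor that were lower belonged to Foxo1 and Foxo3. All but the -0.012 of Foxo1 reached the floor on the control array only.

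**Figure D3:**
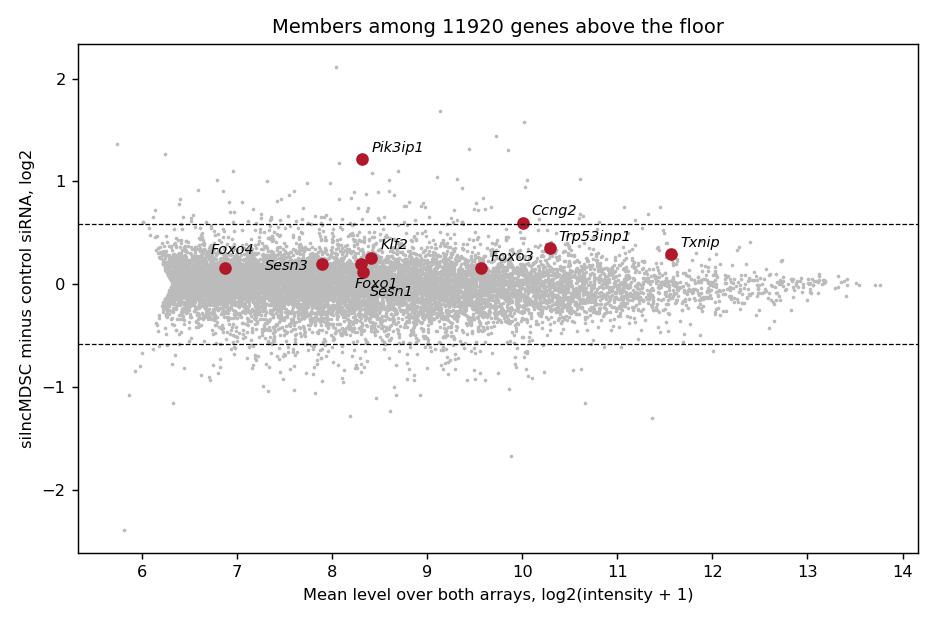
Level of a gene as the mean of both arrays (x axis, log2(intensity + 1)) plotted against the difference between the silncMDSC and control siRNA arrays (y axis, log2) for the 11920 genes above the floor (grey), with the 10 members in red and dashed lines at 1.5-fold. Pik3ip1 stands apart from the cloud at 1.22, Ccng2 lies on its edge at 0.60 and the other 8 lie inside it, between 0.11 and 0.35.

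The rest of the pathway was read through lists of further genes, which share some members and which, like the 10 genes, were written with earlier results of these arrays known. Nothing is therefore read from their counts against the shares over all genes. Of 28 other textbook FOXO targets, 25 were above the floor, with a median of 0.21, close to the 0.22 of the members. Of these, 3 were at least 1.5-fold higher, against 0.948% of all genes, and 0 lower by as much, against 1.42%. Bcl2l11, which encodes the death protein BIM, had 1025 on the silncMDSC array and 572.8 on the control array (0.84), and its other 4 probe sets were higher as well, from 0.20 to 0.70. Bnip3, a mitophagy receptor that low oxygen also induces, had 3252 on the silncMDSC array and 2024 on the control array (0.68). Ccr7, a lymph node homing receptor, had 445.5 on the silncMDSC array and 285.1 on the control array (0.64).

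The other targets on the higher side stayed within 1.5-fold. The farthest of them were the insulin receptor Insr (0.51), the repressor Bcl6 (0.46), the death protein PUMA, encoded by Bbc3 (0.42), and the cell cycle inhibitor p27, encoded by Cdkn1b (0.39, and 0.40 on its other probe set). The list was uneven, with 20 of the 25 higher and 5 lower, where 49.3% of all genes were higher by any amount. Sod2, the mitochondrial superoxide dismutase, had 2862 on the silncMDSC array and 3661 on the control array (-0.35), and its 2 other probe sets gave -0.61 and -0.39. Il7r, the IL-7 receptor chain, and the zinc finger factor Klf6 differed by -0.31 each. Cdkn1a, which encodes the cell cycle inhibitor p21, was nearly level (0.049). Of the 23 genes of this list with a promoter window, 3 held the FOXO element (13%, against 4.05% of all genes) and 2 held ATAAACA (8.7%, against 5.28%). The E-box was in 7 of the 23 (30.4%, against 8.09%) and the C/EBP palindrome in 1 (4.35%, against 2.38%).

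Of the regulators of FOXO proteins, 18 were above the floor and 15 of these were lower, with a median of -0.14, though 0 were 1.5-fold apart. Of all genes above the floor, 49.3% were higher by any amount. Ywhag, a 14-3-3 protein, and Skp2, a ubiquitin ligase subunit that marks FOXO1 for degradation, differed by -0.24 each, and the nuclear exporter Xpo1 by -0.23. The other probe sets of Skp2 ranged from -0.17 to 0.034. Sirt1, a deacetylase of FOXO proteins, had 218.5 on the silncMDSC array and 254.6 on the control array (-0.22).

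Of 15 genes of PI3K subunits and adaptors above the floor, 10 were higher and 5 lower, with a median of 0.12 and 0 of them 1.5-fold apart. Among all genes above the floor, 49.3% were higher by any amount. The regulatory subunits of the leukocyte PI3Kγ were the farthest up, Pik3r6 with 807.3 on the silncMDSC array and 593.8 on the control array (0.44) and Pik3r5 at 0.32, followed by the adaptor Gab2 (0.28, but -0.074 and 0.074 on its other probe sets). The adaptor Pik3ap1 (-0.25) and the catalytic subunits Pik3c2a (-0.14), Pik3cb (-0.11) and Pik3ca (-0.098, with -0.25 to 0.029 on its other probe sets) were lower. The catalytic subunits Pik3cg (0.23, and 0.36 on its other probe set), Pik3cd (0.12) and Pik3c3 (0.11) were higher. The AKT and mTOR genes had a median of 0.009 over 14 genes, 0 of them 1.5-fold apart. The translation brake Eif4ebp1 was higher (0.37) and Akt1 lower (-0.25), although the other Akt1 probe sets ranged from -0.19 to 0.24, and the mTORC1 activator Rheb stood at -0.15.

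Among 19 brakes on PI3K, AKT and mTOR other than Pik3ip1, only Ddit4 was 1.5-fold apart, and the median was 0.039. Over all genes, 0.948% were at least 1.5-fold higher. Ddit4, also known as REDD1, an mTORC1 inhibitor induced by low oxygen and stress, had 1936 on the silncMDSC array and 1242 on the control array (0.64). Trib3, a stress-induced pseudokinase, stood at 0.38 and the AKT phosphatase Phlpp1 at 0.34. Inpp5d, which encodes SHIP-1, a lipid phosphatase that restrains PI3K signalling in blood cells, was level (0.039).

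A list of growth genes known to fall with PI3K and mTORC1 activity had 24 genes that passed the floor. Of these, 18 were lower by any amount and 6 higher, with a median of -0.15. Of all genes above the floor, 49.3% were higher by any amount. At least 1.5-fold lower were 3 of the list, against 1.42% of all genes, and the other 21 were within 1.5-fold. Nolc1, a nucleolar protein, had 238.7 on the silncMDSC array and 517 on the control array (-1.11). Its other probe sets gave -1.08 and -0.86. The -1.08 came from a dim probe set, with 37.28 on the silncMDSC array and 80.15 on the control array. That probe set reached the floor on the control array only. Srm, which makes spermidine, had 334.7 on the silncMDSC array and 706.8 on the control array (-1.08). Myc had 429.7 on the silncMDSC array and 740.7 on the control array (-0.78).

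The pyrimidine enzyme Cad (-0.51), the cyclin Ccnd2 (-0.38, with its other 6 probe sets between -0.54 and -0.22) and the nucleolar protein Ncl (-0.35, with -0.88 to -0.41 on its other probe sets) followed. Not all genes under mTORC1 shared this side, for Mthfd2, a mitochondrial folate enzyme (0.25), and Srebf1, a regulator of lipid synthesis (0.22), were higher, and the glucose handling genes Hk2 (0.036) and Slc2a1 (0.079) were level.

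**Figure D4:**
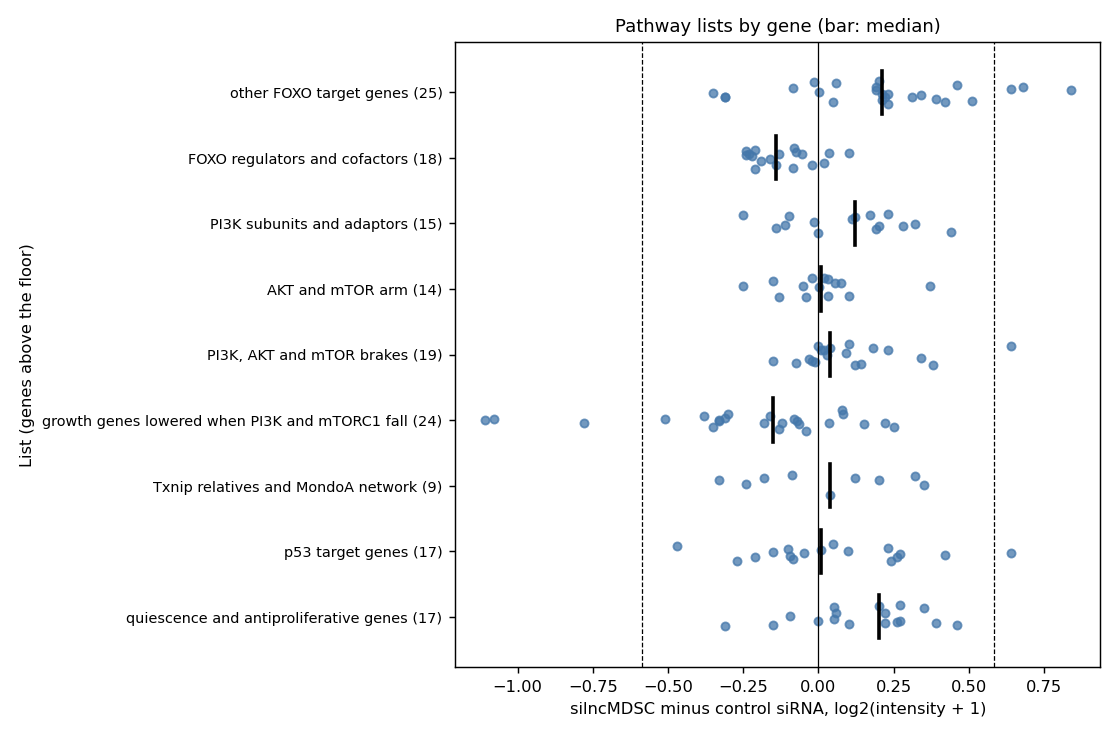
Difference between the silncMDSC and control siRNA arrays (x axis, log2(intensity + 1)) for each gene above the floor in 9 pathway lists (rows, number of genes in brackets), with black bars at the medians and dashed lines at 1.5-fold. Medians run from -0.15 for growth genes to 0.21 for other FOXO targets.

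The relatives of Txnip were read together with the thioredoxin system and the MondoA network. Arrdc3 (0.35) and Arrdc4 (0.32, and 0.42 on its other probe set) are arrestin-like proteins of the same family, and Arrdc4, like Txnip, is induced by the glucose sensor MondoA. A further arrestin relative, Arrdc1, was level (0.040), and Arrdc2 was under the floor on each array. The thioredoxin reductase Txnrd1 was lower (-0.33, and -0.42 on its other probe set), and thioredoxin itself, Txn1, had 5983 on the silncMDSC array and 6363 on the control array (-0.089). Of the 9 genes above the floor 5 were higher and 4 lower, with a median of 0.040 and 0 of them 1.5-fold apart. Trp53inp1 and Sesn1 are also p53 targets. Of 17 other p53 targets, 9 were higher and 8 lower, with a median of 0.010, and Ddit4 was the 1 gene 1.5-fold apart. On the higher side were also Bbc3 (0.42), the antiproliferative gene Btg2 (0.27), the death gene Pmaip1 (0.26) and Perp (0.24). The exonuclease Aen (-0.47), the death receptor Fas (-0.27), the p53 ubiquitin ligase Mdm2 (-0.21) and the cyclin Ccng1, the closest relative of Ccng2 (-0.15, with -0.35 and -0.34 on its other probe sets), were lower. Genes of quiescence had a median of 0.20 over 17, with 13 higher, 4 lower and 0 of them 1.5-fold apart. Beside the counts of these lists, 49.3% of all genes above the floor were higher by any amount. The cell cycle inhibitors Cdkn2c (0.46) and Cdkn1b (0.39) and Mxd4, an antagonist of MYC (0.35, with 0.34 to 0.47 on its other probe sets), were higher. Farthest on the lower side were Klf6 (-0.31) and again Ccng1.

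Foxo1, Klf2, Txnip and Pik3ip1 are strongly expressed in resting lymphocytes, so the markers of other cells in these cultures are given beside them. The T and NK cell list, with 10 of 14 genes read, summed to 3470 on the silncMDSC array and 3334 on the control array, a log2 ratio of 0.058. Of its 7 genes above the floor 1 was at least 1.5-fold higher, against 0.948% of all genes. This was the NK receptor Klrd1, with 528 on the silncMDSC array and 280.7 on the control array (0.91). Il7r lay the other way, with 749.2 on the silncMDSC array and 931.7 on the control array (-0.31), so the near-level sum holds a higher and a lower gene. Cd3d stood at 0.19, while neither array had Cd3g, Cd2 or Gzma above the floor. The defining marker Cd3e had 141.8 on the silncMDSC array and 130.1 on the control array. The B cell list, with 11 of 12 read, summed to 1447 on the silncMDSC array and 1423 on the control array, with Pax5, Vpreb1 and Vpreb3 below the floor on both. Of its 8 genes above the floor 0 were 1.5-fold apart, and the farthest from 0 were Igll1 (0.36), Blnk (-0.23) and Ms4a1 (-0.17).

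The dendritic cell, macrophage and eosinophil lists stood farther apart between the arrays. The dendritic cell list summed to 23272 on the silncMDSC array and 17207 on the control array, with Xcr1 and Siglech below the floor on both. The largest values in this sum were those of antigen presentation genes. H2-Aa had 6210 on the silncMDSC array and 4661 on the control array, H2-Ab1 5618 and 4379, and Cd74 5502 and 4360. The 1.5-fold threshold was passed upwards by 5 of its 12 genes above the floor, against 0.948% of all genes. These were H2-Eb1 (0.75), Ciita (0.70), Itgax (0.66), Batf3 (0.62) and Ccr7 (0.64), which is also in the FOXO target list. Zbtb46 stood at 0.14, and Cd209a was the 1 gene of the 12 that was lower (-0.11). The macrophage list summed to 11854 on the silncMDSC array and 14824 on the control array, with Marco below the floor on both. The same threshold was passed downwards by 5 of its 10 genes above the floor, against 1.42% of all genes. These were Mrc1 (-0.93), Msr1 (-0.91), Apoe (-0.88), Maf (-0.85) and Mertk (-0.69). The eosinophil list summed to 4631 on the silncMDSC array and 3417 on the control array, with 0 of 5 genes 1.5-fold apart, Prg2 (0.55), Siglecf (0.48) and Epx (0.43) the farthest, and Ccr3 and Il5ra below the floor on both. The neutrophil list summed to 65609 on the silncMDSC array and 67075 on the control array, with Cxcr2 (0.44), Ltf (-0.19) and Mmp9 (-0.19) farthest from 0. The monocyte list summed to 16536 on the silncMDSC array and 17009 on the control array. Vcan (-1.01) was its 1 gene at least 1.5-fold lower, against 1.42% of all genes, followed by Ms4a6b (-0.58) and Crip1 (0.53). The part of these cells in the differences of Pik3ip1, Ccng2 and the other members was not tested.

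**Figure D5:**
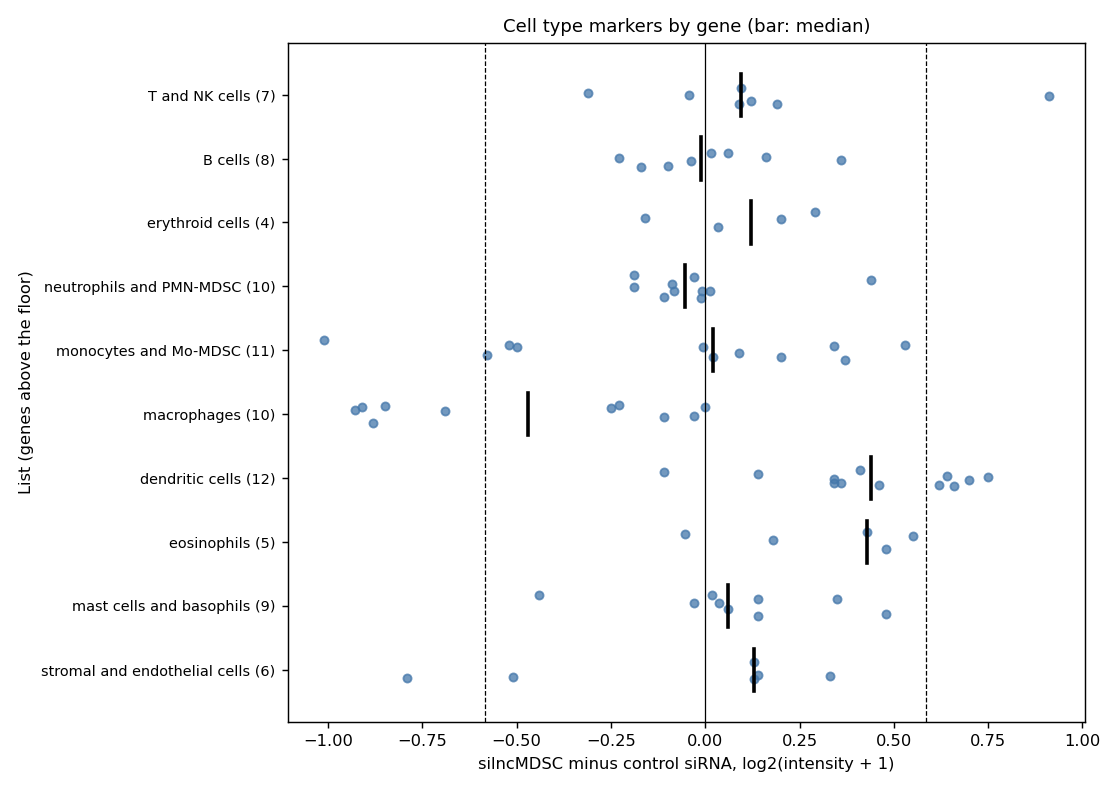
Difference between the silncMDSC and control siRNA arrays (x axis, log2(intensity + 1)) for each gene above the floor in 10 lists of cell type markers (rows, number of genes in brackets), with black bars at the medians and dashed lines at 1.5-fold. Medians lie at 0.094 for T and NK cells and -0.011 for B cells, against 0.44 for dendritic cells and -0.47 for macrophages.

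In the remaining lists, erythroid genes had a median of 0.12 over 4, with Gata1 (0.29), Car2 (0.20) and Epb42 (-0.16) farthest from 0. The 9 genes of mast cells and basophils had a median of 0.059, with Cpa3 at 0.48, Fcer1a at -0.44 and Cd200r3 at 0.35. Stromal and endothelial genes had a median of 0.13 over 6, with the endothelial receptor Kdr at -0.79, Acta2 at -0.51 and Thy1 at 0.33.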

How the data were processed

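Total RNA (6 µg) from 1 culture per siRNA was labelled and hybridised to Affymetrix Mouse Genome 430 2.0 arrays. The authors deposited probe set intensities on a linear scale. The submitters' processing notes name RMA, whose version and return to a linear scale are not given in the sources used here. A gene's name was taken from the platform annotation where a probe set had 1 symbol (34945 of 45037 probe sets), and 34741 of these were found in RefSeq (GRCm38.p6). Differences were taken as log2(intensity + 1), silncMDSC minus control, with Python 3.11.15 and pandas 2.3.3. The procedure was run on simulated data with less spread than the arrays and with bright genes changed by 2-fold or more. That run checks the computation and says nothing about calls near 1.5-fold. The limma test of the methods needs replicates and was not run. The number of arrays limits the precision. Probe sets of several genes and 64 control probe sets were not counted. The members, the lists and their genes were chosen with earlier results of these data known. The naming rule took every member, of each pathway list the genes at least 1.5-fold apart and otherwise up to 3 farthest from 0, and of each marker list up to 3 farthest from 0 among those above the floor. Further genes named were chosen after their values were seen. FOXO protein sequences were not used here. Alternatives covered the scaling, pseudocount (16), floor, threshold, probe sets and members.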

Additional observations from a re-analysis of the deposited data

How the results depend on the processing

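Under the alternatives that give one, which leaves out the 2-fold threshold, the median difference of the members ran from 0.19 (without Pik3ip1) to 0.25. Under each of the 11 alternatives 0 members were lower by the threshold used. The count of 2 members at least 1.5-fold higher became 1 with a 2-fold threshold, 1 when a gene's probe sets were averaged, where Ccng2 dropped to 0.32, and 1 without Pik3ip1. The count of probe sets became 1 with the 2-fold threshold. Without identifiers ending in _x_at or _s_at, Sesn1 dropped to 0.025 and Foxo1 turned to -0.012. The sign also turned for Foxo3, to -0.049 with averaged probe sets, and for the median of p53 targets, to -0.022 with a floor at the 75th percentile, which left Foxo4 out. Averaging also took the median of quiescence genes to 0.086, and 2-fold took the counts for other FOXO targets, brakes and p53 targets to 0. Pik3ip1 ran from 1.16 to 1.25, and the medians of the other FOXO targets from 0.20 to 0.25 and of the growth genes from -0.18 to -0.11. No paired analysis was possible because each group has 1 array. Dim probe sets limit Foxo4 and the second readings of Pik3ip1, Trp53inp1 and Sesn3.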
